A study of Homo sapiens with 28 samples.

Results

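The 9 genes described here are the neuroendocrine markers CHGA, CHGB, SCG2, SYP, ENO2 and NCAM1 and the neuroendocrine factors INSM1, MYT1 and PEG10. They were taken by symbol from 2 tables of RNA-Seq values, which hold 19662 gene symbols each, and all 9 were found in both tables. RPKM are read numbers divided by gene length and by the reads of the library, so levels can be compared between genes. The libraries come from 2 human prostate cancer cell lines. PC3 cells were transfected with a control siRNA (siCtrl) or with siRNAs against the transcription factor ONECUT2 (siOC2). LNCaP cells carried an empty vector or a vector for Flag-tagged ONECUT2 (Flag-OC2). The methods name a lentiviral vector for Flag-tagged ONECUT2, but not which vector these libraries carried. Each condition was kept in normoxia or in hypoxia at 0.2% oxygen, which gives 4 groups of 2 libraries in each line and 16 libraries in all. The 2 siOC2 libraries of a group carry different siRNAs, siRNA1 and siRNA2, so their spread includes the difference between siRNAs. Flag-OC2 is expressed from a vector, each line is a single model, and the sources used here do not give the duration of hypoxia. Nothing says that replicate libraries came from separate cultures, so p-values measure only the spread between these libraries.

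Neuroendocrine cells store hormones and neuropeptides in dense-core vesicles, and the granins CHGA, CHGB and SCG2 are the main soluble proteins of these vesicles. Synaptophysin, encoded by SYP, is a membrane protein of small synaptic-like vesicles. Pathologists stain prostate tumors for chromogranin A, synaptophysin, neuron-specific enolase (ENO2) and the adhesion molecule CD56 (NCAM1) to recognise neuroendocrine prostate cancer (NEPC). INSM1 and MYT1 are zinc-finger transcription factors of neuroendocrine and neuronal differentiation, and PEG10 is an imprinted gene derived from a retrotransposon.

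The lines differed in a known prostate marker. The prostate antigen KLK3 was at 1842 to 3997 RPKM in LNCaP libraries and was listed at 0 in all 8 PC3 libraries. ONECUT2 was lower with both siRNAs. It was at 1.77 and 1.16 RPKM with siCtrl against 0.276 and 0.204 RPKM with siOC2 in normoxia, and at 0.648 and 0.550 against 0.125 and 0.214 RPKM in hypoxia. The table gives no ONECUT2 value in the Flag-OC2 libraries, so overexpression could not be checked. CA9, a hypoxia-induced carbonic anhydrase, was at 25.8 to 50.0 RPKM in hypoxic and 0.386 to 1.54 RPKM in normoxic PC3 libraries, and at 3.05 to 5.38 RPKM against 0 to 0.531 RPKM in LNCaP libraries. Relative depth, estimated from the steps between low values, ran from 0.348 to 1.146 in PC3 and from 0.548 to 1 in LNCaP libraries. Mitochondrial genes took 18.5% to 22.9% of the summed RPKM in hypoxic LNCaP libraries and 9.76% to 13.1% in normoxic ones. Their part in the hypoxia results was not tested, and values with upper-quartile scaling are given where they changed a call.

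The 9 genes differed in level by several orders of magnitude, and the classical granin markers were close to 0 in both lines. The median over 8 LNCaP libraries was 34.9 RPKM for ENO2, 23.8 for PEG10, 2.42 for MYT1, 1.39 for SYP, 0.405 for NCAM1, 0.0905 for SCG2, 0.0452 for CHGA, 0.0137 for CHGB and 0.00573 for INSM1. In this order the ranges of ENO2 and PEG10 overlapped, as did those of MYT1 and SYP, of SYP and NCAM1, and of the 4 lowest genes. The lowest PEG10 value (10.5 RPKM) lay above the highest MYT1 value (4.01 RPKM), and the lowest NCAM1 value (0.179 RPKM) above the highest SCG2 value (0.132 RPKM). In PC3 cells the order began with PEG10 at a median of 74.0 RPKM, followed by ENO2 at 59.9, NCAM1 at 5.69, MYT1 at 0.780, SYP at 0.296, SCG2 at 0.0791, CHGA at 0.0679 and INSM1 at 0.0107 RPKM. CHGB was listed at 0 in 5 of 8 PC3 libraries. The ranges of PEG10 and ENO2, of NCAM1 and MYT1, of MYT1 and SYP, and of SYP with SCG2 and CHGA overlapped, whereas the lowest ENO2 value (19.7 RPKM) lay above the highest NCAM1 value (15.2 RPKM). The tables of the lines were normalized separately, so levels are only set side by side and no difference between the lines was tested.

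**Figure D1:**
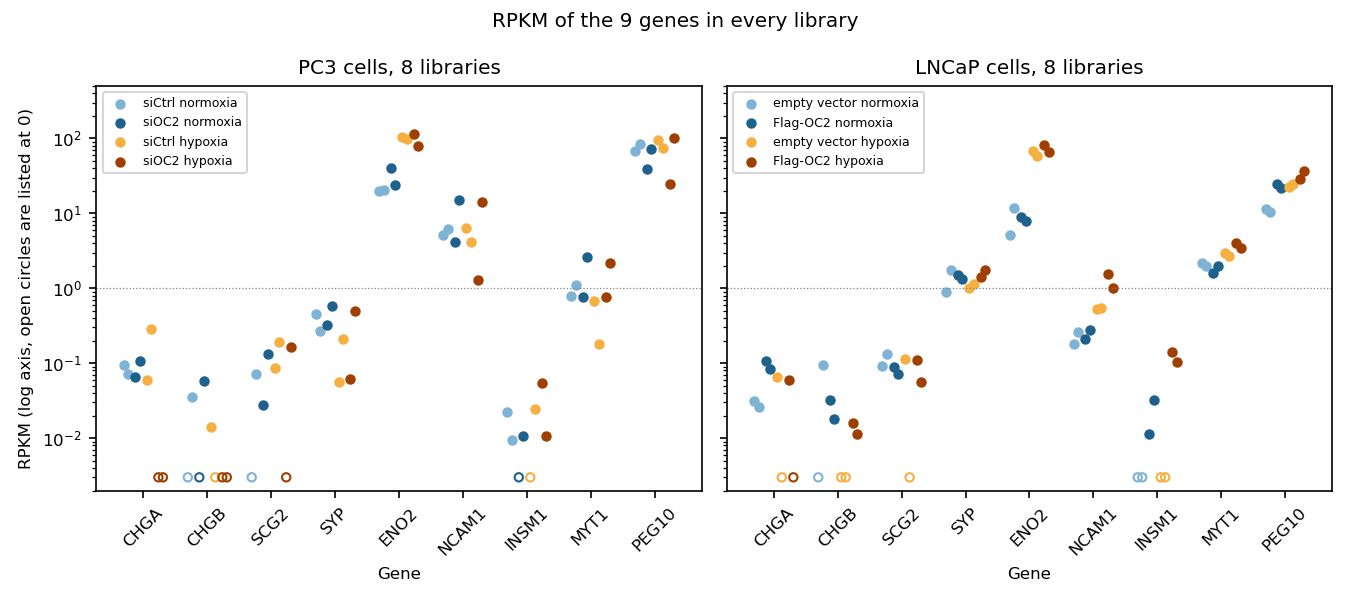
RPKM (log axis) of the 9 genes in each of the 8 PC3 and 8 LNCaP libraries, one point per library, colored by group, with open circles at the bottom for values listed at 0 and a dotted line at 1 RPKM. ENO2 and PEG10 lie above 5 RPKM in every library, and CHGA, CHGB, SCG2 and INSM1 lie below 0.3 RPKM in every library.

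In a GENCODE annotation of GRCh37, the build to which the reads were aligned, the genes lie on 7 chromosomes. CHGA is at chr14:93389495-93401630, CHGB at chr20:5892156-5905999 and SCG2 at chr2:224461658-224467079. SYP is at chrX:49044268-49056677, ENO2 at chr12:7022909-7032861 and NCAM1 at chr11:112831997-113149158. INSM1 is at chr20:20348748-20351593, MYT1 at chr20:62733747-62873606 and PEG10 at chr7:94285637-94299007. SCG2 and SYP are on the minus strand and the other 7 genes on the plus strand. Exons of PEG10 share 219 bases with those of SGCE on the opposite strand, and exons of NCAM1 and SYP overlap antisense RNAs. The libraries were stranded, but the strand setting of the counting is not given in the sources used here, so reads of such overlaps could be assigned to either gene.

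A gene was tested where it reached 1 RPKM in at least 2 libraries of a line, which left 12214 genes in PC3 and 12283 in LNCaP cells. Of the 9 genes, ENO2, NCAM1, MYT1 and PEG10 passed in PC3 cells, and SYP in addition in LNCaP cells. CHGA, CHGB, SCG2 and INSM1 did not pass in either line. NCAM1 in LNCaP cells reached the limit only through the 2 hypoxic Flag-OC2 libraries. Genes of the lists further below passed the same filter. Which of them passed only through a group that is high in a contrast was not checked, so their counts and p are a description. A gene is said to have risen or fallen where limma gave an adjusted p under 0.05 over all genes tested in that contrast. Fold changes are on the scale of log2(RPKM + 0.1), which understates changes of genes near 0. The limits of the study for PC3 cells, a fold change over 2 with an unadjusted P under 0.05, are given as a second rule. Members are read against the share of all genes called in the same contrast.

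The hypoxia response was led by ENO2, the neuronal isoform of the glycolytic enzyme enolase. In LNCaP cells with empty vector, ENO2 was at 5.16 and 11.9 RPKM in normoxia and at 68.3 and 57.8 RPKM in hypoxia. With Flag-OC2 it was at 9.01 and 7.94 RPKM in normoxia and at 80.5 and 66.7 RPKM in hypoxia. Every hypoxic library thus exceeded every normoxic library. ENO2 rose by 2.99 ± 0.32 (log2, SE) with empty vector (limma, adjusted p = 0.000496) and by 3.10 ± 0.32 with Flag-OC2 (limma, adjusted p = 0.000593), 7.92-fold and 8.58-fold. ENO1, the enolase of most tissues, was at 365 to 502 RPKM in normoxic and 1430 to 1543 RPKM in hypoxic LNCaP libraries, and rose by 1.61 ± 0.11 and 1.88 ± 0.11 (log2, SE; limma, adjusted p = 4.9e-05 and 2.7e-05). ENO3, the muscle isoform, rose by 0.63 ± 0.12 and 0.45 ± 0.12 (limma, adjusted p = 0.00533 and 0.0229).

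In PC3 cells with siCtrl, ENO2 was at 19.7 and 20.6 RPKM in normoxia and at 106 and 98.0 RPKM in hypoxia. With siOC2 it was at 39.7 RPKM (siRNA1) and 23.8 RPKM (siRNA2) in normoxia, and at 113 and 80.0 RPKM in hypoxia. All 4 hypoxic values again lay above all 4 normoxic values. ENO2 rose by 2.33 ± 0.31 (log2, SE) with siCtrl, a 5.04-fold change (limma, adjusted p = 0.0285). This call was lost without the filter on low values (adjusted p = 0.0884), with upper-quartile scaling (adjusted p = 0.0519), without the mean-variance trend (adjusted p = 0.0642) and when any of the 4 libraries was left out (adjusted p from 0.241 to 0.464), while the fold change moved little. With siOC2 the change was 1.63 ± 0.31 (limma, adjusted p = 0.405) and passed the limits of the study. With the siRNA as a term of the fit, added after the data were seen, this change had an adjusted p of 0.00167 (limma), and that with siCtrl an adjusted p of 1.5e-05. In PC3 cells ENO1 was at 386 to 473 RPKM in normoxia and 793 to 1110 RPKM in hypoxia, with a change of 1.16 ± 0.20 with siCtrl (limma, adjusted p = 0.0828). ENO2 did not pass the test between high and low ONECUT2 at either oxygen level in either line, with 95% intervals of the log2 difference from -1.32 to 0.11 and from -0.62 to 0.82 in PC3 and from -0.63 to 0.84 and from -0.51 to 0.96 in LNCaP cells, in normoxia and hypoxia respectively.

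The promoter of ENO2 is shown since ENO2 had the largest hypoxia change of the 9 genes, and that of MYT1 since MYT1 rose in hypoxia only as given below. RefSeq windows on GRCh38.p14, another build than that of the reads, were given for 4 of the 9 genes. The 250 bases before the start of ENO2, at chr12:6914330-6914579 on the plus strand, hold ACGTG, a core letter string of hypoxia-inducible factor sites, at bases -118 to -114 from the start. Capitals mark it.
ENO2: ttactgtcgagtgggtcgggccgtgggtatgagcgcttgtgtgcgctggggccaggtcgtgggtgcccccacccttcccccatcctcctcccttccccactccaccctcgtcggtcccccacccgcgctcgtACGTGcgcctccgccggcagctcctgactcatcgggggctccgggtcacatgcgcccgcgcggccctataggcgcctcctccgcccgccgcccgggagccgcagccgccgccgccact
The same window of MYT1, at chr20:64164202-64164451 on the plus strand, holds none of the letters searched and has no capitals.
MYT1: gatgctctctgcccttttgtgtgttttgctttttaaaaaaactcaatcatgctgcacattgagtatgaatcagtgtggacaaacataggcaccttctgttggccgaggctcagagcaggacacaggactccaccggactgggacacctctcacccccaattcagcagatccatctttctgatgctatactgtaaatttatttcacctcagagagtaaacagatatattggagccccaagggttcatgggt
Searched on both strands were ACGTG and GCGTG for hypoxia-inducible factors and ATCAAT and ATCGAT for ONECUT factors. Of 35116 windows of this length, 43.2% hold ACGTG or GCGTG (18.5% hold ACGTG) and 6.19% hold ATCAAT or ATCGAT, so the former strings are common. The windows of CHGA and SYP, the others given, hold GCGTG at 1 and at 2 places. Bases of G or C make up 74.0% of the ENO2 and 45.6% of the MYT1 window. The study reports ChIP-Seq binding of ONECUT2 at the MYT1 promoter, stronger in hypoxia than in normoxia. A search for short strings in 250 bases cannot address that binding, and the window was not matched to the gene start given above.

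Of the 5 genes tested in LNCaP cells, only PEG10 was called between Flag-OC2 and empty vector, and only in normoxia. PEG10 was at 11.5 and 10.5 RPKM with empty vector and at 24.8 and 21.8 RPKM with Flag-OC2 in normoxic LNCaP cells. In hypoxia it was at 22.8 and 24.8 RPKM with empty vector and at 28.6 and 36.2 RPKM with Flag-OC2. The groups did not overlap at either oxygen level, and hypoxic empty vector libraries reached the range of the normoxic Flag-OC2 libraries. PEG10 rose with Flag-OC2 in normoxia by 1.08 ± 0.14 (log2, SE), 2.11-fold (limma, adjusted p = 0.00537). Without Flag-OC2 replicate 1 this was 0.99 with an adjusted p of 0.0528. In hypoxia the difference was 0.44 ± 0.14, 1.35-fold (limma, adjusted p = 0.0797). Hypoxia raised PEG10 by 1.11 ± 0.14 with empty vector (2.15-fold; limma, adjusted p = 0.000995) and by 0.46 ± 0.14 with Flag-OC2 (1.38-fold; limma, adjusted p = 0.0405). The latter call was lost with upper-quartile scaling (adjusted p = 0.0615), without the filter (0.0723), without the trend (0.0586), with the replicate block (0.0597) and without any of 3 of the 4 libraries (up to 0.243). The interaction, which asks whether the effect of Flag-OC2 differed in hypoxia, was -0.64 ± 0.20 (limma, adjusted p = 0.179). Added up, the single log2 effects exceeded the combined one, but this difference did not pass. SGCE, the overlapping gene, was at 1.05 to 2.54 RPKM in LNCaP libraries and its contrasts had adjusted p from 0.496 to 0.903 (limma).

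NCAM1 was low in LNCaP cells and highest where hypoxia and Flag-OC2 were combined. It was at 0.179 and 0.262 RPKM with empty vector and at 0.208 and 0.278 RPKM with Flag-OC2 in normoxia. In hypoxia it was at 0.532 and 0.541 RPKM with empty vector and at 1.56 and 1.01 RPKM with Flag-OC2. The hypoxic groups overlapped neither each other nor the normoxic groups. In hypoxia with Flag-OC2 its change was 1.99 ± 0.34 (log2, SE), 3.98-fold (limma, adjusted p = 0.00478). Since NCAM1 passed the filter only through the libraries that are high in this contrast, it had to differ there, and this p is given as a description. In a fit of all 18312 genes above 0 in any library, which does not use this filter, the adjusted p was 0.00906 (limma). With empty vector the change was 1.00 ± 0.34 (limma, adjusted p = 0.0535), and the difference of Flag-OC2 over empty vector in hypoxia was 1.09 ± 0.34 (limma, adjusted p = 0.0747). Both passed the limits of the study. The difference between vectors in hypoxia was called with a pseudocount of 1 (adjusted p = 0.0409), without the trend (0.0285) and in a fit of only the groups compared (0.0472). It was not called without the filter (limma, adjusted p = 0.0663), and ran from 0.80 to 1.39 with a library left out. The libraries through which NCAM1 passed the filter are also the high ones of this contrast, so these p are a description too. In normoxia the difference between vectors was 0.10 ± 0.34 with an adjusted p of 0.880, and the interaction was 0.99 ± 0.48 (limma, adjusted p = 0.346).

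MYT1 and INSM1 had their highest LNCaP values in the same libraries. The study singled both genes out in these LNCaP libraries, so their direction is not independent evidence. MYT1 was at 2.17 and 1.98 RPKM with empty vector and at 1.59 and 1.98 RPKM with Flag-OC2 in normoxia, where the groups touched. In hypoxia it was at 2.98 and 2.68 RPKM with empty vector and at 4.01 and 3.49 RPKM with Flag-OC2, without overlap. MYT1 rose in hypoxia with Flag-OC2 by 1.04 ± 0.18 (log2, SE), 2.05-fold (limma, adjusted p = 0.00536). With empty vector the change was 0.43 ± 0.18 (limma, adjusted p = 0.104), the difference between vectors was 0.39 ± 0.18 in hypoxia (limma, adjusted p = 0.199) and -0.21 ± 0.18 in normoxia (limma, adjusted p = 0.504), and the interaction was 0.61 ± 0.26 (limma, adjusted p = 0.284).

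INSM1 was below the filter and close to the detection limit. It was listed at 0 in all 4 empty vector libraries, at 0.0115 and 0.0322 RPKM with Flag-OC2 in normoxia, and at 0.143 and 0.102 RPKM with Flag-OC2 in hypoxia. Scaled by relative depth, these values were whole multiples of a smallest step to within 0.001, taken here as 1 fragment. In this unit the Flag-OC2 libraries held 1 and 4 fragments in normoxia and 20 and 10 fragments in hypoxia. A count of 0 allows up to 3 fragments, or 0.0236 and 0.0207 RPKM in the hypoxic empty vector libraries. The hypoxic Flag-OC2 mean was 5.53-fold the mean of these limits. Counting error and spread of the Flag-OC2 libraries are not included, so this is not a lower bound of the fold change. INSM1 entered the fit of all genes above 0 only through Flag-OC2 libraries, and its empty vector values of 0 have no spread. Its p-values in that fit are therefore given as a description. There the Flag-OC2 difference in hypoxia had an adjusted p of 0.0106 (limma, where 7.47% of genes were called). The hypoxia difference with Flag-OC2 had an adjusted p of 0.0122 (16% called), and the interaction one of 0.164. In PC3 libraries INSM1 held 0 to 2 fragments, which is too few for a comparison.

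**Figure D2:**
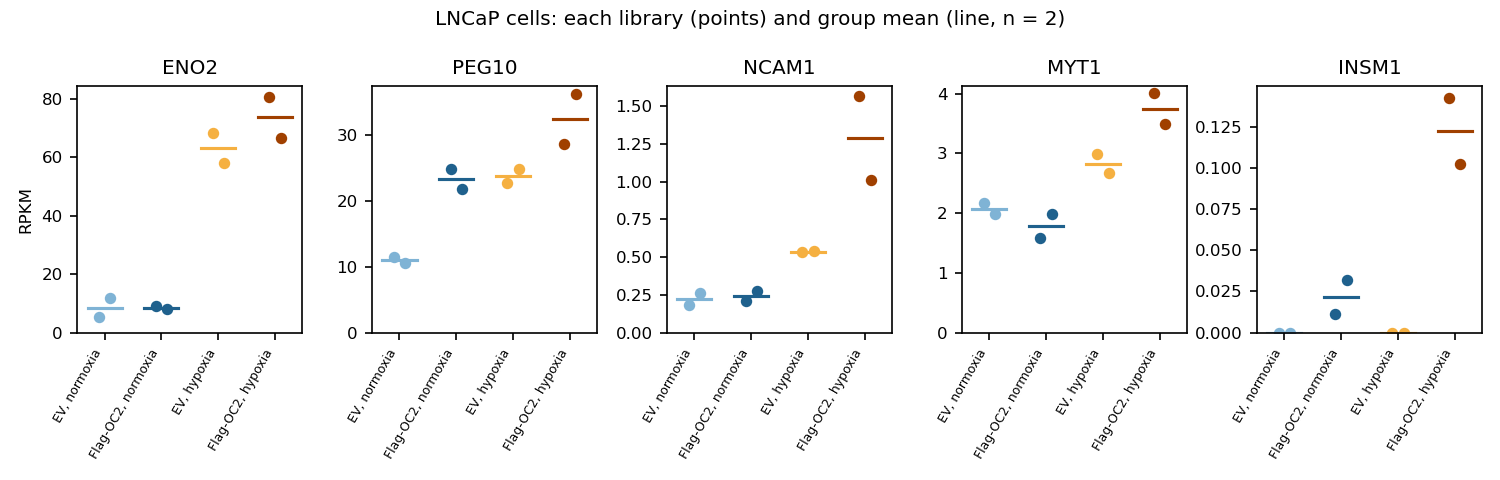
RPKM of ENO2, PEG10, NCAM1, MYT1 and INSM1 in LNCaP cells with empty vector (EV) or Flag-OC2 in normoxia or hypoxia, on linear axes from 0, with a point per library and a line at the group mean (n = 2). The hypoxic Flag-OC2 group has the highest mean for each of the 5 genes, from 73.6 RPKM for ENO2 to 0.122 RPKM for INSM1, and the empty vector libraries of INSM1 are at 0.

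The vesicle markers did not pass the test in LNCaP cells. SYP was at 0.879 and 1.77 RPKM with empty vector and at 1.51 and 1.35 RPKM with Flag-OC2 in normoxia, and at 1.00 and 1.15 against 1.43 and 1.75 RPKM in hypoxia. The hypoxic groups did not overlap, but the difference of 0.52 ± 0.31 (log2, SE) was within the spread of the fit (limma, adjusted p = 0.313). CHGA was at 0.0314 and 0.0260 RPKM with empty vector and at 0.106 and 0.0834 RPKM with Flag-OC2 in normoxia, and in hypoxia 1 library of each vector was listed at 0 and the other at 0.0651 and 0.0590 RPKM. CHGB was between 0 and 0.0935 RPKM, and SCG2 between 0 and 0.132 RPKM. In the fit of all genes above 0, CHGA, CHGB and SCG2 had adjusted p between 0.22 and 1 (limma) in every LNCaP contrast. In PC3 cells CHGA was at 0.0935 and 0.0713 RPKM with siCtrl and at 0.0646 and 0.106 RPKM with siOC2 in normoxia, at 0.0604 and 0.284 RPKM with siCtrl in hypoxia, and was listed at 0 in both hypoxic siOC2 libraries. Its siCtrl over siOC2 difference in hypoxia had an adjusted p of 0.318 in that fit. SCG2 was at 0 to 0.191 RPKM and SYP at 0.0557 to 0.585 RPKM in PC3 libraries.

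Counted over the members, 1 of 5 tested rose with Flag-OC2 in normoxic LNCaP cells, where 5.26% of all genes tested were called, and 0 of 5 were called in hypoxia, where 11.5% were. With empty vector 2 of 5 rose in hypoxia against 32.3% of all genes, and with Flag-OC2 4 of 5 against 26.9%. The latter includes NCAM1, which passed the filter only through the hypoxic Flag-OC2 libraries, and without it the count was 3 of 4. Since a large share of all genes was called in hypoxia, the count of 2 with empty vector is close to the background. For the interaction 0 of 5 were called against 0.244% of all genes. By the limits of the study, the counts were 1 of 5 against 3.29% for Flag-OC2 in normoxia, 1 of 5 against 4.47% in hypoxia, 3 of 5 against 7.95% for hypoxia with empty vector, 3 of 5 against 6.84% for hypoxia with Flag-OC2, and 0 of 5 against 3.7% for the interaction. NCAM1 is in the 3 hypoxia-related counts of these, which without it were 0 of 4, 2 of 4 and 2 of 4. The 2 hypoxia contrasts and the 2 vector contrasts of a line share libraries with each other.

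**Figure D3:**
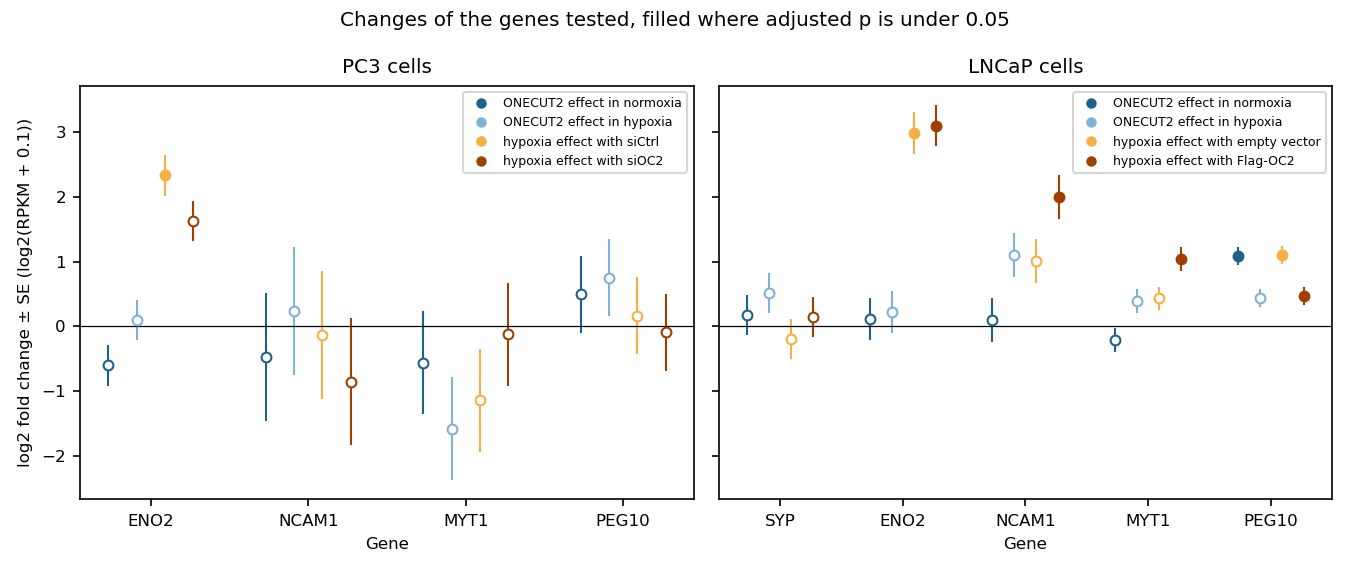
Log2 fold changes (log2(RPKM + 0.1), y axis) with SE of the genes tested in each line, for ONECUT2 (siCtrl over siOC2 in PC3, Flag-OC2 over empty vector in LNCaP) and for hypoxia over normoxia, with n = 2 libraries per group and filled points where the limma adjusted p was under 0.05. ENO2 has the highest hypoxia values in both lines, between 1.63 and 3.10, and only PEG10 in normoxic LNCaP cells is filled for ONECUT2.

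In PC3 cells 0 of 4 members tested were called for siCtrl over siOC2, in normoxia (0.00819% of all genes called) and in hypoxia (0.0901%). The limits of the study also called 0 of 4, against 5.21% and 7.5% of all genes. ONECUT2 itself, at 2.18 ± 0.65 and 1.39 ± 0.65 (log2, SE), had adjusted p of 0.332 and 0.439 in these contrasts (limma). The counts of 0 thus do not show that the members were unchanged. For hypoxia, 1 of 4 was called with siCtrl (0.27% of all genes, or 1 of 4 against 3.86% by the limits of the study) and 0 of 4 with siOC2 (0.00819%, or 1 of 4 against 3.46%). CA9, the hypoxia-induced gene, changed by 4.89 ± 0.54 (log2, SE) in hypoxia with siOC2 and was not called there either (limma, adjusted p = 0.0599). No member was called for the interaction (0% of all genes, or 0.942% by the limits of the study). In normoxia and hypoxia respectively the difference of siCtrl over siOC2 was 0.49 ± 0.60 and 0.75 ± 0.60 for PEG10, -0.48 ± 0.99 and 0.24 ± 0.99 for NCAM1 and -0.56 ± 0.80 and -1.58 ± 0.80 for MYT1 (log2, SE). The median of all genes in these contrasts was -0.13 and 0.03. Hypoxia changed these 3 genes by -1.146 to 0.16 with siCtrl and by -0.86 to -0.10 with siOC2 (log2), none past the test.

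The values of NCAM1, MYT1 and PEG10 in PC3 cells differed between the libraries of the siRNAs. NCAM1 was at 5.17 and 6.21 RPKM with siCtrl, at 4.11 RPKM with siRNA1 and at 15.2 RPKM with siRNA2 in normoxia. In hypoxia it was at 6.35 and 4.16 RPKM with siCtrl, 1.30 RPKM with siRNA1 and 14.0 RPKM with siRNA2. Thus siRNA1 libraries lay below and siRNA2 libraries above all siCtrl libraries. MYT1 was at 0.787 and 1.11 RPKM with siCtrl, 0.760 RPKM with siRNA1 and 2.62 RPKM with siRNA2 in normoxia, and at 0.682 and 0.180 RPKM, 0.772 RPKM and 2.16 RPKM in hypoxia. The siRNA2 libraries held the highest values of this gene, and the hypoxic siCtrl libraries also lay apart from each other. PEG10 was at 67.1 and 85.1 RPKM with siCtrl, 39.5 RPKM with siRNA1 and 72.8 RPKM with siRNA2 in normoxia, and at 95.2 and 75.1 RPKM, 24.8 RPKM and 101 RPKM in hypoxia. Here siRNA1 was below every siCtrl library and siRNA2 was within or just above their range. Without the hypoxic siRNA2 library, PEG10 was called for siCtrl over siOC2 in hypoxia, at 1.76 ± 0.39 (log2, SE; limma, adjusted p = 0.0358, with 1091 of 12214 genes called), where the lone siRNA1 library is assumed to vary like the other groups. In the same fit the difference was 1.91 ± 0.68 for NCAM1 (limma, adjusted p = 0.117), -0.90 ± 0.87 for MYT1 (limma, adjusted p = 0.538) and -0.15 ± 0.33 for ENO2 (limma, adjusted p = 0.800), against 0.24, -1.58 and 0.10 with all libraries.

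A contrast of siRNA2 over siRNA1, with both oxygen levels in 1 fit, was added after these values were seen. Its calls and p restate differences already seen and are given as a description, here and in the lists below. The contrast called 3 of 4 members against 24.4% of all genes tested. MYT1 is among them but passed the filter on low values only with the siRNA2 libraries, which are the high ones here. Apart from MYT1, NCAM1 and PEG10 were called. The median of all genes was 0.26 (log2), or 0.12 with upper-quartile scaling. NCAM1 was higher with siRNA2 by 2.60 ± 0.35 (log2, SE; limma, adjusted p = 0.000109), PEG10 by 1.45 ± 0.28 (limma, adjusted p = 0.00177) and MYT1 by 1.52 ± 0.52 (limma, adjusted p = 0.043). ENO2 was lower with siRNA2 by a log2 difference of -0.62 ± 0.23 (limma, adjusted p = 0.057). The call of MYT1 was lost with upper-quartile scaling (adjusted p = 0.0702), without the filter (0.152) and without any of the 4 siOC2 libraries (0.144 to 0.161). The call of PEG10 was lost without the filter (0.0564) and without either hypoxic siOC2 library (0.0692 and 0.0734, with a difference of 0.88). ONECUT2 itself differed by 0.09 ± 0.57 between the siRNAs (limma, adjusted p = 0.927). SGCE, at 51.7 to 79.8 RPKM in PC3 libraries, differed by -0.07 ± 0.24 (limma, adjusted p = 0.860), while PEG10 on the opposite strand differed as given. Each siRNA has 1 library per oxygen level, and the hypoxic siRNA1 library was the shallowest, at a relative depth of 0.348. The normoxic siRNA1 library was the deepest of the PC3 libraries, at 1.146. The part of depth in these differences was not tested at either oxygen level.

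**Figure D4:**
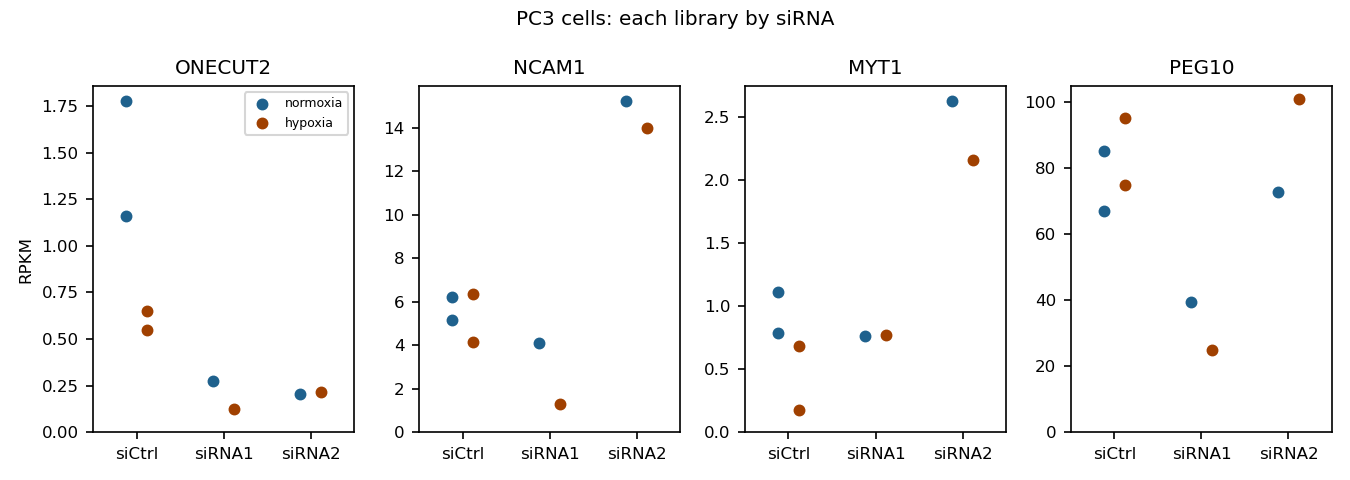
RPKM of ONECUT2, NCAM1, MYT1 and PEG10 in PC3 cells by siRNA (siCtrl with 2 libraries per oxygen level, siRNA1 and siRNA2 with 1), on linear axes from 0, a point per library. ONECUT2 is at or below 0.276 RPKM with either siRNA, whereas NCAM1 is at 1.30 and 4.11 RPKM with siRNA1 and at 14.0 and 15.2 RPKM with siRNA2.

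Other genes of dense-core vesicles moved in part. Of 12 such genes, 7 were tested in each line. In LNCaP cells 2 rose and 2 fell in hypoxia with empty vector (against 32.3% of all genes called), and 3 rose and 0 fell with Flag-OC2 (26.9%). Between vectors 0 were called in normoxia and in hypoxia (5.26% and 11.5% of all genes). At an unadjusted limma P under 0.05 these were 0 and 3, against 2966 and 3466 of all 12283 genes tested. The medians with empty vector and with Flag-OC2 were -0.14 and 0.15 (log2), beside 0.02 and 0.09 over all genes. PTPRN, a phosphatase-like vesicle protein, rose by 3.17 ± 0.45 with empty vector and 4.10 ± 0.45 with Flag-OC2 (limma, adjusted p = 0.00175 and 0.000811). PCSK1N, an inhibitor of prohormone convertase 1, rose by 1.68 ± 0.26 with Flag-OC2 (limma, adjusted p = 0.00327), and VGF, a granin-like neuropeptide precursor, fell by 0.95 with empty vector (limma, adjusted p = 0.0451). In PC3 cells 0 were called for ONECUT2 or hypoxia, where only 0.00819% to 0.27% of all genes were called. At an unadjusted limma P under 0.05 there were 0 to 2, against 820 to 1482 of all 12214 genes tested. With siRNA2 4 were higher and 1 was lower than with siRNA1 (24.4% of all genes called).

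Of 16 genes of synaptic vesicles and exocytosis, the neighbours of SYP in function, 6 were tested in LNCaP cells. Hypoxia with empty vector called 4 of 6 against 32.3% of all genes, all higher, including the synaptotagmin SYT4 at 1.59 ± 0.16 (limma, adjusted p = 0.000407) and the syntaxin STX1A at 0.92 ± 0.18 (limma, adjusted p = 0.00634). Hypoxia with Flag-OC2 called 1 of 6 against 26.9%, SYT4 at 0.98 ± 0.16 (limma, adjusted p = 0.00435). In PC3 cells 0 of 7 were called for ONECUT2 or hypoxia, where only 0.00819% to 0.27% of all genes were called. At an unadjusted limma P under 0.05 there were 0 to 3, against 820 to 1482 of all 12214 genes tested. The median of the 7 for siCtrl over siOC2 was -0.50 in normoxia and -0.77 in hypoxia, beside -0.13 and 0.03 over all genes.

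Of 20 neuroendocrine and neural regulators, 5 were tested in LNCaP cells. With Flag-OC2 1 of 5 was called in hypoxia against 11.5% of all genes, and hypoxia called 0 of 5 with empty vector against 32.3% and 3 of 5 with Flag-OC2 against 26.9%. ZNF711, a zinc-finger factor, was singled out by the study in these LNCaP libraries beside MYT1 and INSM1, so its direction is not independent evidence. It rose with Flag-OC2 in hypoxia by 0.73 ± 0.19 (log2, SE; limma, adjusted p = 0.0409) and in hypoxia with Flag-OC2 by 1.01 ± 0.19 (limma, adjusted p = 0.00654). POU2F3 and LHX2 rose in the latter contrast by 0.82 ± 0.19 and 0.48 ± 0.15 (limma, adjusted p = 0.0156 and 0.0467). REST, the repressor of neuronal genes in non-neuronal cells, stayed between 12.5 and 15.96 RPKM in all LNCaP libraries, with changes between 0.05 and 0.10 in the 4 contrasts (limma, adjusted p from 0.607 to 0.865). In PC3 cells 0 of 10 were called for ONECUT2 or hypoxia, where only 0.00819% to 0.27% of all genes were called. At an unadjusted limma P under 0.05 there were 0 to 2, against 820 to 1482 of all 12214 genes tested. The siRNA2 libraries had 4 higher and 2 lower than siRNA1 (24.4% of all genes called). SOX2 was higher by 3.58 ± 0.43 (limma, adjusted p = 5.0e-05) and POU2F3 lower, at -3.61 ± 0.78 (limma, adjusted p = 0.00396).

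Among 10 paralogs of the members, 5 were tested in LNCaP cells. Called were 1 of 5 for Flag-OC2 in hypoxia (11.5% of all genes), 2 of 5 for hypoxia with empty vector (32.3%) and 3 of 5 for hypoxia with Flag-OC2 (26.9%). Apart from ENO1 and ENO3, the paralog of NCAM1 was called: NCAM2 fell with Flag-OC2 in hypoxia by 0.53 (log2) and in hypoxia with Flag-OC2 by 0.36 (limma, adjusted p = 0.0086 and 0.019), the contrasts in which NCAM1 was at 1.09 and 1.99. In PC3 cells 0 of 4 were called in any of the 5 contrasts, where only 0% to 0.27% of all genes were called. At an unadjusted limma P under 0.05 there were 0 or 1, against 126 to 1482 of all 12214 genes tested.

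The study chose its pan-neuroendocrine tumor genes in other data sets. It also reports, from a score of the set in these LNCaP libraries, strong synergy of ONECUT2 and hypoxia in activating them. Their direction here is therefore not independent evidence. The interaction of single genes given below is another measure than that score. Of 80 such genes without the members, 30 were tested here in LNCaP cells. With Flag-OC2 1 rose in normoxia and 7 rose in hypoxia, against 5.26% and 11.5% of all genes called in either direction, and 0 fell in either. Hypoxia with empty vector had 9 higher and 2 lower against 32.3%, and hypoxia with Flag-OC2 had 16 higher and 0 lower against 26.9%. A low gene can pass the filter through its high group alone, which was not checked here, so counts and p of this list are a description. The medians of these 4 contrasts were 0.13, 0.56, 0.14 and 0.53 (log2) in this order, beside -0.08, -0.01, 0.02 and 0.09 over all genes. For the interaction 0 were called against 0.244% of all genes. At an unadjusted limma P under 0.05 there were 8 of 30, against 2072 of all 12283 genes tested. FXYD6, a regulator of the sodium pump, rose with Flag-OC2 in hypoxia by 3.55 ± 0.46 (limma, adjusted p = 0.00334), and RGS16, a regulator of G-protein signaling, by 2.68 ± 0.24 (limma, adjusted p = 0.000621). In PC3 cells 0 of 29 were called for ONECUT2 or hypoxia, where only 0.00819% to 0.27% of all genes were called. At an unadjusted limma P under 0.05 there were 3 to 5, against 820 to 1482 of all 12214 genes tested. With siRNA2 15 were higher and 0 lower than with siRNA1 (24.4% of all genes called), at a median of 1.28 beside 0.26 over all genes.

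Genes with the most similar profile to each called member, by Pearson's r of log2(RPKM + 0.1) over 8 libraries of a line, are given as a description. Libraries of a group share their treatment, so these r mostly follow the 4 groups. In LNCaP cells ENO2 was closest to DPYSL2, IER5L and PTMS (r of 0.99 for each), and PEG10 to SNCG, FAM222A and OPTN (r of 0.99, 0.99 and 0.99). NCAM1 was closest to PIM1, CADM4 and HMBOX1 (r of 0.99 each), and MYT1 to AVL9, GBP2 and TPGS2 (r of 0.99 each). In PC3 cells ENO2 was closest to SEC61G, ADM and HILPDA (r of 0.99, 0.99 and 0.98), of which ADM and HILPDA are known hypoxia-induced genes. NCAM1 followed CCDC74B, ZNF782 and DDHD1 (r of 1.00, 0.99 and 0.99), MYT1 followed PARK7, MAOA and ERCC4 (r of 0.98, 0.98 and 0.97) and PEG10 followed FAM111B, LYPLA1 and CCDC88A (r of 0.99 each).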

How the data were processed

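The authors prepared TruSeq Stranded mRNA libraries, ran the aligner STAR 2.4.2a on trimmed reads (build hg19), and deposited RPKM per gene symbol, for which Cufflinks 2.1.1 used GENCODE models of GRCh37. The deposited RPKM were used without a further scaling, and no read counts were used here. Groups and replicate numbers came from the labels. ChIP-Seq samples (12) were not used here. In each line, genes that reached 1 RPKM in 2 or more of 8 libraries entered a limma model (version 3.58.1, R 4.3.3) of log2(RPKM + 0.1) on the 4 groups, with a variance trend and without a block, and p-values were adjusted by Benjamini-Hochberg. Tests are 2-sided. The steps were tested on simulated data. Named are the 9 members, up to 3 called genes of a list with the largest changes, and ONECUT2, REST, CA9, ENO1 and ENO3, with SGCE added as the gene that overlaps PEG10. Some genes that this rule names are not reported here. The members and lists were chosen with earlier results of these data known. The siOC2 replicate number is that of the siRNA: the deviations of same-numbered siOC2 libraries in normoxia and hypoxia correlated at 0.618 over genes, and other pairs of PC3 groups at -0.186 to 0.0759. Intervals and floors cover counting error or the spread between libraries only.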

Additional observations from a re-analysis of the deposited data

Results flagged for a closer look

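The differences of MYT1 had opposite signs in the lines, and whether they differ between the lines was not tested. In hypoxia with high against low ONECUT2, its log2 difference was -1.58 in PC3 cells, where both siCtrl libraries lay below both siOC2 libraries (-0.90 without hypoxic siOC2 replicate 2), and 0.39 in LNCaP cells, where both Flag-OC2 libraries lay above both empty vector libraries. For hypoxia over normoxia in control libraries, it was -1.15 in PC3 cells and 0.43 in LNCaP cells, each without overlap between groups. None of the 4 values passed the test (limma, adjusted p from 0.104 to 0.837). In hypoxic PC3 cells MYT1 was at 0.682 and 0.180 RPKM with siCtrl, 0.772 RPKM with siRNA1 and 2.16 RPKM with siRNA2. The siCtrl library at 0.180 RPKM had a relative depth of 0.382, and the part of depth was not tested. MYT1 passed the filter in PC3 cells only with the siRNA2 libraries, which are on the high side of the siOC2 difference.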

How the results depend on the processing

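No member change past either call rule changed direction under the settings tried. ENO2 for siCtrl over siOC2 in hypoxia, which was not called, went from 0.10 to -0.15 without hypoxic siOC2 replicate 2. The number of members called for hypoxia with siCtrl in PC3 cells fell from 1 to 0 without the filter, with upper-quartile scaling and without the trend. For hypoxia with siOC2 it rose from 0 to 1 by the limits of the study and with the siRNA as a term of the fit. For Flag-OC2 in hypoxia in LNCaP cells it rose from 0 to 1 (NCAM1) by the limits of the study and with a pseudocount of 1. The same held without the trend and in a fit of only the groups compared. Without the filter the number also rose from 0 to 1, through INSM1, which entered that fit only through Flag-OC2 libraries. For siRNA2 over siRNA1 it fell from 3 to 1 without the filter. With a library left out, the counts in PC3 cells ran from 0 to 0 for ONECUT2 in normoxia, 0 to 1 for ONECUT2 in hypoxia (PEG10, without hypoxic siOC2 replicate 2), 0 to 0 for hypoxia with siCtrl, 0 to 1 for hypoxia with siOC2 (ENO2, without hypoxic siOC2 replicate 2, adjusted p = 0.0236), 0 to 0 for the interaction and 1 to 2 for siRNA2 over siRNA1. A group left with 1 library was assumed to vary like the others. In LNCaP cells they ran from 0 to 1 for Flag-OC2 in normoxia (0 without Flag-OC2 replicate 1), 0 to 0 in hypoxia, 2 to 2 for hypoxia with empty vector, 3 to 4 with Flag-OC2 and 0 to 0 for the interaction. The cause of these changes was not tested. With the replicate block the counts were 0, 0, 1, 0 and 0 in PC3 and 1, 0, 2, 3 and 0 in LNCaP cells in the order of the report, so the block removed only PEG10 for hypoxia with Flag-OC2. In LNCaP cells deviations of same-numbered libraries correlated over genes at 0.275 between the hypoxic groups and at -0.0648 to 0.00375 in the other pairs, and the labels name no shared origin for the numbers. A block with crossed numbers of the normoxic siCtrl libraries, added after the data were seen, left the 5 PC3 counts as they were. INSM1 held 0 to 20 fragments in LNCaP libraries, and for CHGA, CHGB and SCG2 no fragment number was derived.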
